A study of Mus musculus with 10 samples.

Results

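The genes described here are those of the proteasome, taken as every gene on the array whose symbol is Psma, Psmb, Psmc, Psmd, Psme, Psmf or Psmg followed by a number. They came to 49 of the 18194 genes that had a probe set of their own, each read from whichever of its probe sets was brightest on average over the 10 arrays. By role they are 7 outer (alpha) ring subunits, 3 constitutive catalytic beta subunits, 4 other beta subunits, 6 ATPases and 11 non-ATPase subunits of the cap, 7 assembly chaperones, 3 other regulators, 4 immune subunits, 2 subunits known from other tissues and 2 genes that fit the naming pattern but are not subunits. Of the 5 immune subunits set against the rest (Psmb8, Psmb9, Psmb10, Psme1 and Psme2), 4 were measured alone. The probe set for Psme2 also matches Psme2b and was kept out of every count.

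The study profiled murine leukemia stem cell lines grown in Opti-MEM with FBS and stem cell factor, with 1 Affymetrix Mouse Genome 430 2.0 array per sample. The samples included 2 cultures of RH-RAS lines (lines 1 and 3) exposed to 1 µM SGC0946, an inhibitor of the histone H3 lysine methyltransferase Dot1l, for 4 days, 3 progenitor lines carrying NUP98-JARID1A, in which part of a nuclear pore protein is joined to part of a histone demethylase, and 1 progenitor line transformed by MLL-AF9. The NUP98-JARID1A and MLL-AF9 lines were set against 4 untreated RH-RAS lines, and the treated cultures against untreated lines 1 and 3 of these. The RH-RAS lines coexpress DNMT3A carrying R882H and NRAS carrying G12D and were established ex vivo, independently of each other. The labels do not say this of the NUP98-JARID1A lines, so there the p-values speak only of the spread among the samples at hand. MLL-AF9 rests on a single line and array, and any vehicle given to the untreated cultures is not named in the sources used here.

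The proteasome is the barrel-shaped protease that degrades ubiquitin-tagged proteins in the cytoplasm and nucleus. Its 20S core stacks rings of alpha and beta subunits, 3 of the beta subunits carry the cutting sites, and a 19S cap of ATPases and non-ATPase subunits recognises, unfolds and feeds in the substrate. In blood cells and under interferon the cutting subunits Psmb5, Psmb6 and Psmb7 are replaced by Psmb8, Psmb9 and Psmb10 to give the immunoproteasome, and the Psme1-Psme2 ring can take the place of a cap. Peptides cut this way are carried by Tap1 and Tap2 to MHC class I.

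The labelled cell type was compared with its markers. All 10 stem and progenitor markers were measured and lay above the array median on all 10 arrays, among them Kit, the stem cell factor receptor, and Cd34. Their levels moved with the groups. Under SGC0946, 7 of the 10 fell and 1 rose (median log2 change −1.22), with Kit at −1.98 and Cd34 at −1.67, and in NUP98-JARID1A lines 2 were higher and 4 lower. Over all genes tested, 12% were called under SGC0946 and 51.0% in NUP98-JARID1A lines. The log2 summed level of the stem and progenitor list was 14.74 in both treated cultures, 15.32 to 15.49 in NUP98-JARID1A lines, 15.23 in MLL-AF9 and 15.48 to 15.61 in untreated RH-RAS lines. Of 5 measured B cell genes, Cd79a, Ms4a1 and Ebf1 lay below the array median on every array, Pax5 was above it on 2 arrays, and Cd79b was above it on 9 and lower in NUP98-JARID1A lines by 1.97. Of 5 fibroblast genes, Col1a1, Col1a2 and Col3a1 lay below it on every array, Pdgfrb was above it on 4, and Fn1 was above it on 9 and higher in NUP98-JARID1A lines by 3.74 (adjusted p = 0.00131). Markers of mature myeloid cells also moved with the groups. Monocyte and macrophage genes rose in 9 of 9 under SGC0946 (median log2 change 4.09), and the log2 of their summed intensity was 15.27 and 15.33 in treated cells, 14.79 to 15.38 in NUP98-JARID1A lines, 13.59 in MLL-AF9 and 11.98 to 13.26 in untreated RH-RAS lines. In NUP98-JARID1A lines 5 of these genes were higher, 1 was lower (Fcgr1, −1.16) and 3 did not pass. The brightest of them there was Lyz2, at 14.33, 14.14 and 14.49. Neutrophil genes were higher in 9 of 9 in NUP98-JARID1A lines (median 5.63). Their log2 sums were 11.66 and 11.72 in treated cells, 14.91 to 16.52 in NUP98-JARID1A lines, 15.99 in MLL-AF9 and 11.83 to 12.50 in untreated RH-RAS lines. Ltf, Ngp, Camp, Lcn2, S100a8, S100a9 and Elane lay above the array median only on NUP98-JARID1A and MLL-AF9 arrays. They were tested only because they are high there, so the filter partly fixed the count of 9 of 9. Of 8 dendritic cell and MHC class II genes tested, 3 rose under SGC0946, and in NUP98-JARID1A lines 1 was higher and 4 lower. Their log2 summed level was 12.26 and 12.27 in treated cells, 11.07 to 11.45 in NUP98-JARID1A lines and 10.87 to 11.34 in untreated RH-RAS lines. Of 7 T and NK cell genes tested, 3 fell under SGC0946, and in NUP98-JARID1A lines 1 was higher and 2 lower. That list's log2 summed level was 8.84 and 8.85 in treated cells, 10.10 to 12.04 in NUP98-JARID1A lines and 10.25 to 11.47 in untreated RH-RAS lines. The filter partly fixed some of these calls too. The T and NK cell genes Cd3g and Gzma lay above the array median only on untreated RH-RAS arrays. The dendritic cell gene Cd83 did so only on treated arrays, and the macrophage gene Mrc1 only there and in NUP98-JARID1A line 3. Untreated line 4 stood apart, with a correlation across genes of 0.986 to 0.988 with lines 1 to 3, against 0.995 to 0.997 among those, and a median of 1.15 above them over the monocyte genes. The part of these marker genes in the results on the proteasome was not tested. In bulk samples, fewer cells of a type and less RNA per cell cannot be told apart.

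Proteasome genes were strongly expressed and varied less than genes at large. All 47 that were tested lay above the array median on every array, with mean levels on the log2 intensity scale between 9.27 and 12.96 and a median of 11.77, against a median of 8.70 over the 11993 genes tested. Their median SD over the 10 arrays was 0.19, against 0.28 for all genes, and over the 4 untreated RH-RAS lines it was 0.091, against 0.12. Genes of a matched level were not compared, so the smaller spread may go with the high level. The 2 untested genes were Psma8, the alpha subunit of testis, and Psmb11, the beta subunit of thymus, which lay below the array median on all arrays at mean levels of 4.28 and 4.33. Among the untreated lines, line 3 gave the lowest of the 4 values for 29 of the 47 genes (61.7%), where it did so for 27.1% of all genes, and it is also a control of the treated cells.

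The upstream sequences of the immune subunits are shown because these are the members set apart from the rest. These subunits include Psmb10, which rose with the inhibitor and was higher in NUP98-JARID1A lines, and Psmb9, which was higher in those lines. Sequences of the other members called in NUP98-JARID1A lines are not shown. Each sequence shown is RefSeq's window of 250 bases before to 50 after the annotated start (build GRCm38.p6), 5′ to 3′ on the gene's own strand. Capitals mark matches, on either strand, to 5 short patterns: the interferon-stimulated response element GAAANNGAAA, the STAT site TTCNNNGAA, the NF-kB site GGGNNNNNCC, the antioxidant response element TGANNNNGC and the CCAAT box. Overlapping matches run together.
Psmb10, chr8:105938343-105938642, minus strand: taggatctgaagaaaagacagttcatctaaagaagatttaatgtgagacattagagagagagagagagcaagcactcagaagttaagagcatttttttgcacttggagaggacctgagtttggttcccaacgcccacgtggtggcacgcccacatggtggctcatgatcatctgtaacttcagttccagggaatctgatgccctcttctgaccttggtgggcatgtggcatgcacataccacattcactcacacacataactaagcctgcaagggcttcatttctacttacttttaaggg
Psmb9, chr17:34187281-34187580, minus strand: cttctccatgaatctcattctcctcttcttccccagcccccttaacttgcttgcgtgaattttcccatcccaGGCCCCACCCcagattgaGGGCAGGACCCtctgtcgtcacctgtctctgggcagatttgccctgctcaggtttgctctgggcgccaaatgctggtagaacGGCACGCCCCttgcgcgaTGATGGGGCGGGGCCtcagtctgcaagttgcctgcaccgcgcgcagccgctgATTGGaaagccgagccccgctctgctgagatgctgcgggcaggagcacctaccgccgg
Psmb8, chr17:34197945-34198244, plus strand: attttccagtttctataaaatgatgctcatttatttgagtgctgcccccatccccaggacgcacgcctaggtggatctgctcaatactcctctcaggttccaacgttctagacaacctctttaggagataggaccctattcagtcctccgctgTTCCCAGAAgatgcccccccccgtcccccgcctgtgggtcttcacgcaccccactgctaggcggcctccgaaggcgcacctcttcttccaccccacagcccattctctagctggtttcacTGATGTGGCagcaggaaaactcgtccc
Psme1, chr14:55578244-55578543, plus strand: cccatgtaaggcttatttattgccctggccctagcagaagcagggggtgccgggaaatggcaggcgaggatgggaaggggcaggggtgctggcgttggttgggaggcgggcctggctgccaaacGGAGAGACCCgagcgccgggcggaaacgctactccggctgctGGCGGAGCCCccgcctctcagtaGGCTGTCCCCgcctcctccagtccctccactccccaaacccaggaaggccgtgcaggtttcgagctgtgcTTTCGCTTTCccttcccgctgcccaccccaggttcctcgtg

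The Psmb10 window held no match to these patterns. The Psmb9 window held 5 NF-kB matches, 1 antioxidant match and 1 CCAAT box, the Psmb8 window a STAT match at base 154 and an antioxidant match at base 274, and the Psme1 window an interferon-stimulated response element at base 260 and 3 NF-kB matches. These letters are short and common. An NF-kB match occurred in 50.8% of the 32851 windows in the table, an antioxidant match in 41.3%, a CCAAT box in 37.4%, a STAT match in 8.3% and an interferon-stimulated response element in 3.44%. Of the proteasome genes, 41 of 49 had a window. The interferon-stimulated response element occurred in 5 of the 41 (12.2%, against 3.99% of genes with a window), those of Psme1, Psmb3, Psmd4, Psmd9 and Psmg4, and the antioxidant pattern in 24 (58.5%, against 45.0%). The other patterns were near or below the share of all genes. The NF-kB pattern occurred in 23 (56.1%, against 53.5%), the CCAAT box in 16 (39.0%, against 41.1%) and the STAT pattern in 3 (7.32%, against 9.55%). A match is a description of the letters and not a shown binding site.

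The question put to the inhibitor-treated cultures is what Dot1l inhibition does to transcription in RH-RAS cells. Among proteasome genes 1 rose, the immune subunit Psmb10, which takes the trypsin-like position of Psmb7. Its log2 intensity was 11.46 and 11.32 in treated lines 1 and 3, against 10.99 and 10.74 in the same lines untreated and 10.98 and 11.02 in untreated lines 2 and 4. Both treated values lay above all 4 untreated ones, and untreated line 3 was the lowest of these. The change was 0.52 ± 0.11 (SE) on the log2 scale, or 1.44-fold, at 0.46 in line 1 and 0.58 in line 3, with an adjusted p of 0.0253 from limma. Leaving out either treated array, or untreated line 1 or line 3, left changes of 0.40 to 0.65 that did not pass (adjusted p = 0.0565 to 0.171).

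The other immune subunits changed by less than their SE. Psmb9, which takes the caspase-like position of Psmb6, was at 11.65 and 11.52 in treated lines 1 and 3, against 11.54 and 11.43 untreated (0.10 ± 0.15, adjusted p = 0.730). Psmb8, which takes the chymotrypsin-like position of Psmb5, was at 12.67 and 12.57, against 12.62 and 12.46 untreated (0.08 ± 0.12, adjusted p = 0.735). Psme1, the alpha chain of the activator ring, was at 12.44 and 12.38, against 12.29 and 12.30 untreated (0.12 ± 0.12, adjusted p = 0.630). All 3 changes were above 0 in both lines and none of them passed. The probe set shared by Psme2 and Psme2b read 12.22 and 12.17 in treated lines 1 and 3, against 11.83 and 11.77 in the same lines untreated and 11.91 and 12.02 in lines 2 and 4.

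**Figure D1:**
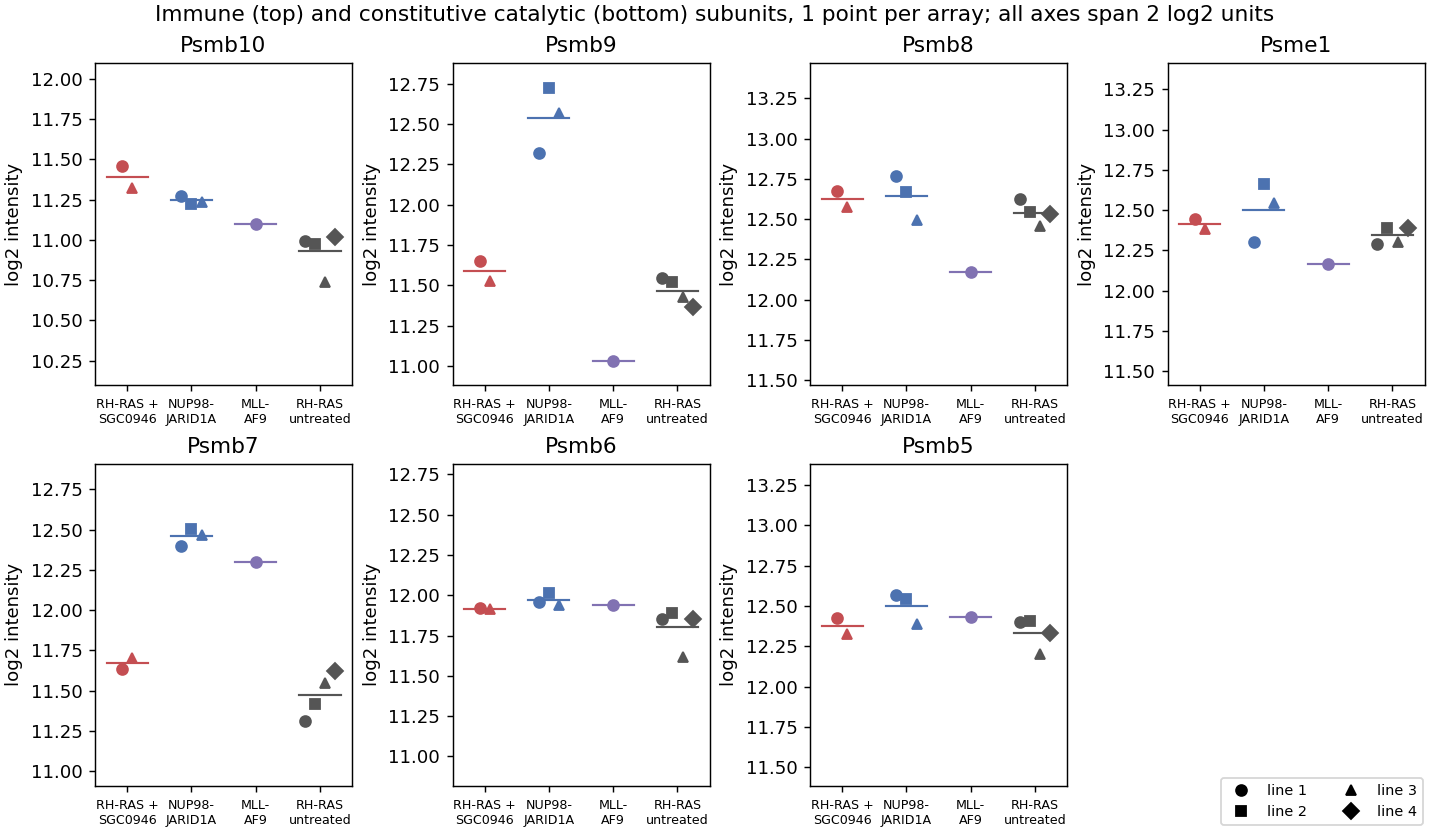
Log2 intensity of the immune subunits (top) and of the constitutive catalytic subunits they replace (bottom), with 1 point per array, a bar at the group mean and marker shape giving the line number within its group. Every axis spans 2 log2 units. Psmb10 is above its untreated values in both treated cultures, and Psmb9 and Psmb7 are higher in all 3 NUP98-JARID1A lines than in any RH-RAS array.

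Over all 47 tested proteasome genes, 1 rose and 0 fell under SGC0946 in limma (2.13%), against 12% of all genes (6.84% higher and 5.12% lower). At an unadjusted p under 0.05 there were 2 higher and 2 lower (8.51%), against 26.8% of all genes. With the line as a block the count was again 1, Psmb10 (adjusted p = 0.0314), while the count over all genes went down to 866, against 1434 without it. The changes were small and mostly upward. The median was 0.11, against 0.02 over all genes, 39 of 47 genes (83.0%) were above 0, against 53.2% of all genes, and 33 were higher in both lines, 8 lower in both and 6 divided. Without untreated line 3 the median was 0.02, and without untreated line 1 it was 0.16. In 16 of 47 genes the treated values lay outside the range of all 4 untreated lines, against 48.0% of all genes.

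Of the constitutive catalytic subunits, Psmb7 was at 0.24 ± 0.12, Psmb6 at 0.18 ± 0.10 and Psmb5 at 0.07 ± 0.11, and none passed (adjusted p = 0.256, 0.323 and 0.759). The alpha ring ran from −0.10 for Psma6 to 0.32 ± 0.10 for Psma1, whose adjusted p was 0.0773. Psma1 stood at 12.56 and 12.68 in treated lines 1 and 3, against 12.29 and 12.31 untreated, and at 12.27 and 12.43 in lines 2 and 4. The other beta subunits lay between 0.01 (Psmb1) and 0.18 (Psmb3), the ATPases between −0.18 (Psmc6) and 0.25 (Psmc4), and the non-ATPase subunits between −0.02 (Psmd3) and 0.22 (Psmd13).

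The lowest value belonged to Psme4, the large activator that caps the core without ATPases. It was at 10.64 and 10.60 in treated lines 1 and 3, against 11.15 and 11.07 untreated and 11.09 and 10.75 in untreated lines 2 and 4. Both treated values were below every untreated one, with a change of −0.49 ± 0.14 that did not pass (adjusted p = 0.0736), and it did pass in a fit of the 6 RH-RAS arrays alone (adjusted p = 0.0402). Of its 6 probe sets, the other 2 that lay above the array median on all arrays gave −0.24 and −0.25. Psmg2, a chaperone of alpha ring assembly, was at −0.30 ± 0.12 (adjusted p = 0.150), and the chaperones as a group ran from there to 0.20 for Psmg4. Among the other regulators, Psme3 and the inhibitor Psmf1 were at 0.16 and 0.12, and the 2 genes that are not subunits, Psmc3ip of meiotic recombination and Psme3ip1, a partner of Psme3, were at −0.15 and −0.22.

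**Figure D2:**
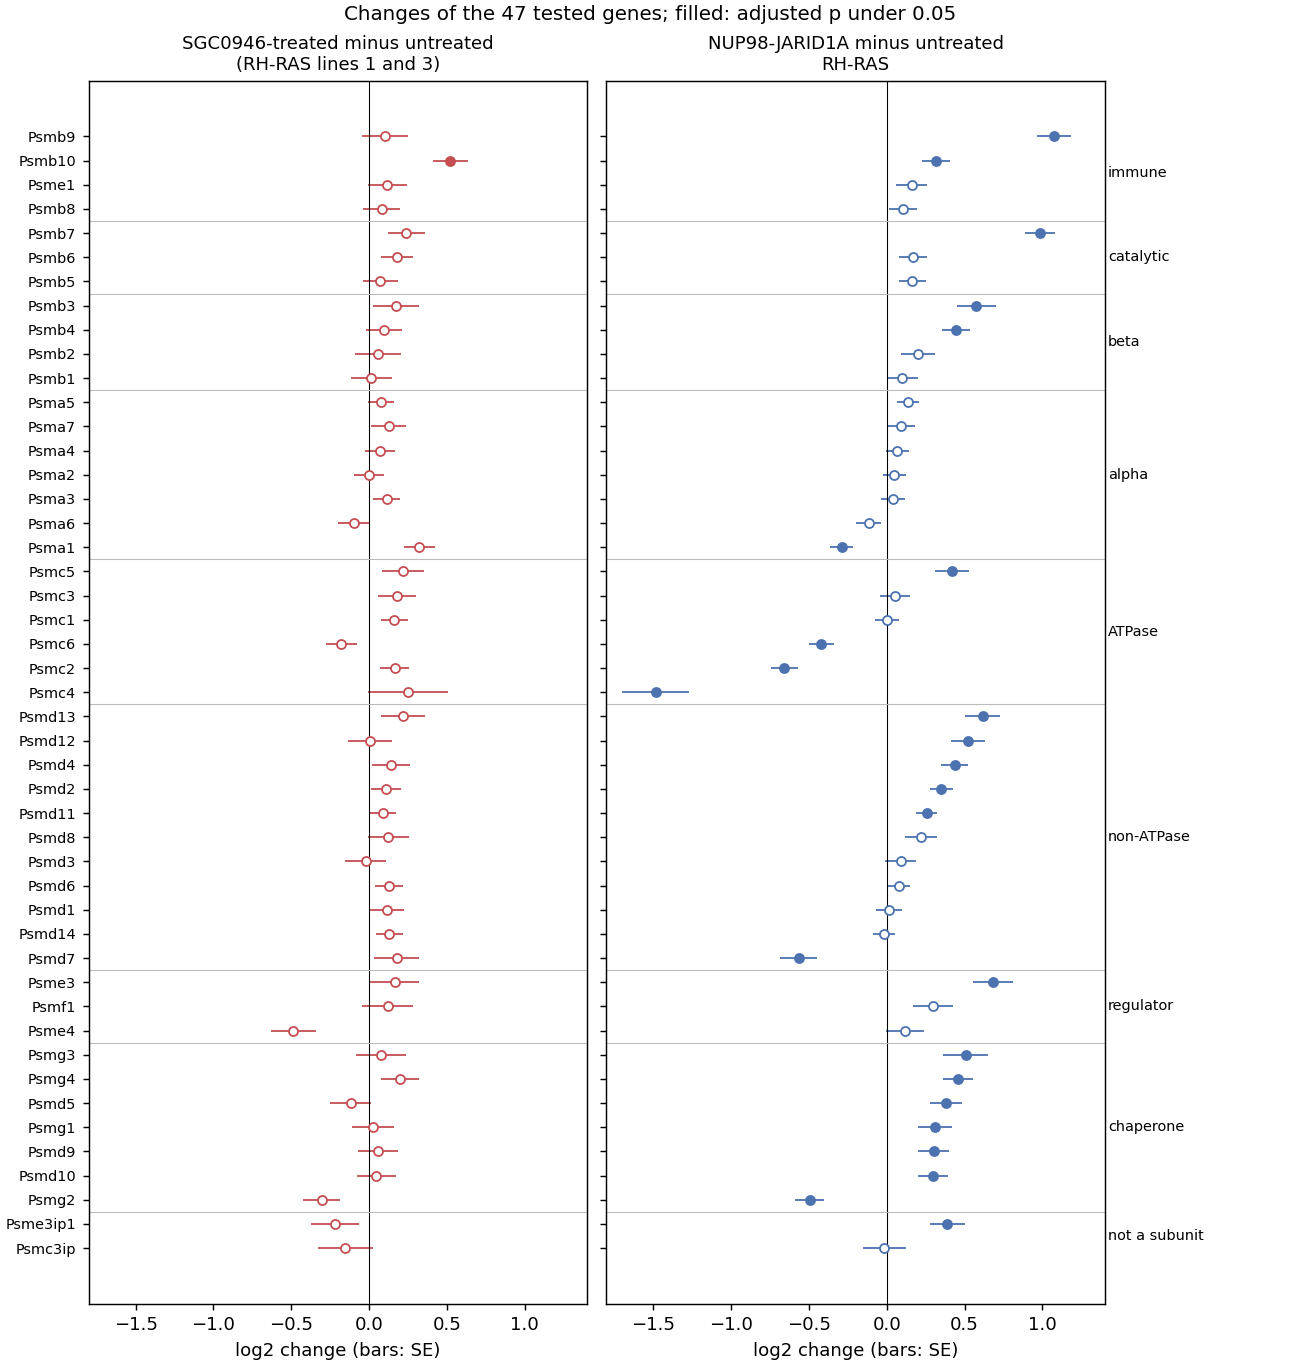
Log2 change of each of the 47 tested genes, grouped by role, under SGC0946 (left, treated minus untreated in lines 1 and 3) and in NUP98-JARID1A lines (right, minus untreated RH-RAS lines), with bars of 1 SE and filled points at an adjusted p under 0.05. On the left only Psmb10 is filled, and on the right 25 points are, from −1.48 for Psmc4 to 1.07 for Psmb9.

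The next comparison sets the NUP98-JARID1A lines against the untreated RH-RAS lines. Of 47 proteasome genes 19 were higher and 6 lower, or 53.2%, which is close to the 51.0% of all genes called in the same comparison (32.5% higher and 18.5% lower). The sizes were modest. The median absolute difference was 0.30, against 0.35 over all genes, 10 genes differed by at least 0.5, where 37.7% of all genes did, and 2 by at least 1, where 16.5% did. The median signed difference was 0.16, against 0.10. In 26 of 47 genes the groups did not overlap, against 54.8% of all genes.

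Among the immune subunits, Psmb9 showed the largest difference. It was at 12.32, 12.73 and 12.57 in NUP98-JARID1A lines, against 11.54, 11.52, 11.43 and 11.36 in RH-RAS lines 1 to 4, so every NUP98-JARID1A value was well above every RH-RAS value. The difference was 1.07 ± 0.11, or 2.11-fold (adjusted p = 0.000267). Psmb10 was at 11.27, 11.23 and 11.24, against 10.99, 10.98, 10.74 and 11.02, again without overlap. It was higher by 0.31 ± 0.09 (adjusted p = 0.0215), and missed the threshold without NUP98-JARID1A line 1 (adjusted p = 0.0521). Psmb8 was at 12.76, 12.67 and 12.49, against 12.62, 12.54, 12.46 and 12.53, and Psme1 at 12.30, 12.66 and 12.54, against 12.29, 12.39, 12.30 and 12.39. For both the groups overlapped, and the differences of 0.10 ± 0.09 and 0.16 ± 0.10 did not pass (adjusted p = 0.378 and 0.219). Without NUP98-JARID1A line 1, Psme1 passed at 0.26 (adjusted p = 0.0422). The shared Psme2 and Psme2b probe set read 11.82, 11.85 and 11.84, against 11.83, 11.91, 11.77 and 12.02.

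Of the subunits that Psmb8, Psmb9 and Psmb10 replace, 1 was higher. Psmb7 was at 12.40, 12.51 and 12.47 in NUP98-JARID1A lines, against 11.31, 11.42, 11.55 and 11.62 in RH-RAS lines. This was the second largest rise among the members, at 0.98 ± 0.09 or 1.98-fold (adjusted p = 0.000195). Psmb6 was at 11.96, 12.01 and 11.94, against 11.85, 11.89, 11.62 and 11.85, and Psmb5 at 12.57, 12.54 and 12.39, against 12.40, 12.40, 12.20 and 12.33. Neither difference passed (0.17 ± 0.09 and 0.16 ± 0.09, adjusted p = 0.154 for each). Psmb7, Psmb9 and Psmb10 each have a single probe set of their own.

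In the remainder of the core, Psmb3 and Psmb4 were higher by 0.57 and 0.44, Psmb1 and Psmb2 did not pass, and the alpha ring held 6 genes of 7 between −0.12 (Psma6) and 0.14 (Psma5) that did not pass. The exception was Psma1, lower by 0.29 ± 0.07, at 12.05, 12.07 and 11.99 against 12.29, 12.27, 12.31 and 12.43. Psmb3 read 12.39, 12.37 and 12.12 in NUP98-JARID1A lines, against 11.80, 11.86, 11.45 and 11.76 in RH-RAS lines.

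The ATPases of the cap, which unfold substrates, divided. Psmc4, Psmc2 and Psmc6 were lower by 1.48, 0.66 and 0.42 on the log2 scale, Psmc5 was higher by 0.42, and Psmc1 and Psmc3 were at 0.00 and 0.05. Psmc4 was at 11.06, 10.40 and 10.83 in NUP98-JARID1A lines, against 11.78, 12.38, 12.27 and 12.55 in RH-RAS lines, which was also the widest spread of any member within RH-RAS (SD 0.33). Psmc2 was at 11.71, 11.58 and 11.64, against 12.23, 12.37, 12.17 and 12.42. Neither gene overlapped between the groups, and for both a second probe set did not show the difference.

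Of 11 non-ATPase subunits 5 were higher, 1 lower and 5 did not pass. Psmd13, a lid subunit, was at 11.18, 11.52 and 11.17 in NUP98-JARID1A lines, against 10.68, 10.71, 10.54 and 10.78 in RH-RAS lines (0.62 ± 0.11), and Psmd12, also of the lid, at 11.61, 11.94 and 11.55, against 11.19, 11.23, 11.09 and 11.20 (0.52 ± 0.11). Psmd4, a ubiquitin receptor, Psmd2, a scaffold of the base, and Psmd11 of the lid were higher by 0.44, 0.35 and 0.26. The next brightest probe set of Psmd11 was at 0.05. Psmd7 was lower, at 10.76, 10.65 and 10.44, against 11.02, 11.12, 11.22 and 11.37 (−0.57 ± 0.12). Psmd14, the deubiquitinase of the lid and the structural partner of Psmd7, was at −0.02 ± 0.07 and did not pass.

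All 7 assembly chaperones were called, 6 higher and 1 lower, in a comparison that called 51.0% of all genes (32.5% higher). Psmg3 and Psmg4, which act as a pair on the alpha ring, were higher by 0.51 ± 0.15 and 0.46 ± 0.09. Psmg3 was at 11.19, 11.16 and 10.89 in NUP98-JARID1A lines, against 10.64, 10.79, 10.24 and 10.61 in RH-RAS lines. Psmg4 was at 10.15, 10.43 and 10.27, against 9.88, 9.85, 9.70 and 9.87. The other chaperone pair moved apart, with Psmg1 higher by 0.31 ± 0.11 and Psmg2 lower, at 11.28, 11.13 and 10.96 against 11.54, 11.62, 11.66 and 11.64 (−0.49 ± 0.09). Psmd5, Psmd10 and Psmd9, which help to assemble the base, were higher by 0.38, 0.30 and 0.30. The calls of Psmg1, Psmd9 and Psmd10 were the least stable, each lost in 6 of 14 alternative settings.

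Among the other regulators, Psme3, the nuclear activator, was higher by 0.68 ± 0.13, at 10.35, 10.31 and 9.98 in NUP98-JARID1A lines against 9.61, 9.56, 9.30 and 9.64 in RH-RAS lines. Psmf1 (0.30 ± 0.13) and Psme4 (0.12 ± 0.12) did not pass. Psme3ip1 was higher by 0.39 ± 0.11, and Psmc3ip was at −0.02. Of the 25 genes called, 12 kept their call and direction in all 14 alternative settings, among them Psmb9, Psmb7, Psmb3, Psmc4, Psmc6, Psmd12, Psme3, Psmg2 and Psmg4. None of these settings read Psmc4 from its second probe set alone, which was at 0.02.

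Different probe sets of the same gene often disagreed in this comparison. For 24 proteasome genes at least 2 probe sets lay above the array median on all 10 arrays. In 14 of these the differences between NUP98-JARID1A and RH-RAS lines had opposite signs, in 10 the same sign, and in 12 the probe sets were more than 0.5 apart (median 0.52). Under SGC0946, 15 had the same sign, 9 had opposite signs and 3 were more than 0.5 apart (median 0.15). Psmc4 was at −1.48 on the probe set used and 0.02 on the other, and Psmc2 at −0.66 and 0.08. Psmb4 was at 0.44 and −0.58, Psmd7 at −0.57 and 0.55, and Psmd13 between 0.62 and −0.54 over 4 probe sets. Psmb8 was at 0.10 and −1.21, Psmd6 at 0.08 and −1.08, and 1 probe set of Psmb1 was at 1.63 where the one used was at 0.10. By contrast the 3 probe sets of Psmc6 were at −0.42, −1.11 and −1.78, and those of Psme3 that lay above the median throughout were at 0.68 and 1.38. The direction given for Psmc4, Psmc2, Psmb4, Psmd7, Psmd9, Psmg3 and Psmd13 is therefore that of the brightest probe set, which need not hold for the whole gene.

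**Figure D3:**
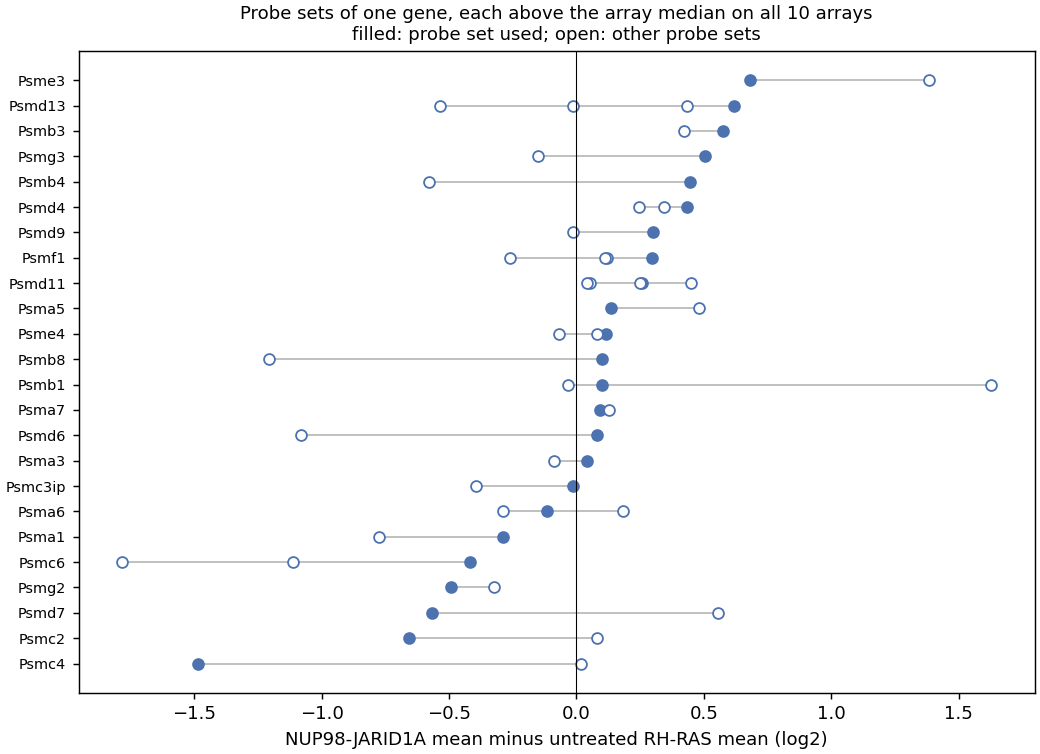
Mean of NUP98-JARID1A lines minus mean of untreated RH-RAS lines (log2) for each probe set above the array median on all 10 arrays, for the 24 genes with at least 2 of them. Filled points are the probe sets used and open points the others, and lines that cross 0 mark the 14 genes whose probe sets differ in sign.

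The MLL-AF9 line has no replicate, so its values carry no test. On the probe sets used, no proteasome gene lay both beyond all 4 RH-RAS lines and at least 1 log2 unit away from their mean (0 of 47). Of all genes 13.0% did (7.21% higher and 5.78% lower). At a difference of at least 0.5 there were 2 higher, Psmb7 (0.83) and Psmg1 (0.76), and 2 lower, Psmc4 (−0.83) and Psmg2 (−0.52), against 32.6% of all genes (19.0% higher and 13.6% lower). Psmb7 was at 12.30 in MLL-AF9, against 11.31 to 11.62 in RH-RAS lines, and Psmg1 at 11.50, against 10.59 to 10.92. Psmc4 was at 11.41, against 11.78 to 12.55, and its second probe set at −0.15. The other probe set of Psmg2 above the array median throughout was at −0.14. Unused probe sets of some other genes were beyond 0.5, among them those of Psmb3 (0.67) and Psmd6 (−0.57). An unused probe set of the immune subunit Psmb8 was beyond 1 log2 unit (−1.22), at 6.64 against 7.24 to 8.55 in RH-RAS lines. So was one of Psmd13 (−1.35), at 6.10 against 6.95 to 7.63. The genes named therefore depend on the probe set chosen. The single MLL-AF9 value lay above or below all RH-RAS values for 31 of 47 genes (66.0%), against 75.7% of all genes.

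In this line 3 of the immune subunits were below all RH-RAS lines. Psmb9 was at 11.03 in MLL-AF9, against 11.36 to 11.54 in RH-RAS lines, Psmb8 at 12.17, against 12.46 to 12.62, and Psme1 at 12.16, against 12.29 to 12.39. Their differences from the RH-RAS mean were −0.43, −0.37 and −0.18. Psmb10 was above, at 11.10 against 10.74 to 11.02 (0.17), and the shared Psme2 and Psme2b probe set was at 11.80, among the RH-RAS values. The alpha ring had a median of 0.28, with Psma4 at 0.47 and Psma3 at 0.38. The testis subunit Psma8 was at 5.30 in MLL-AF9, against 3.90 to 4.20 in RH-RAS lines, and still below the array median.

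The immune subunits were then set against the rest within each array. The mean log2 level of the 4 immune genes minus that of the other 43 was 0.55 and 0.48 in treated lines 1 and 3, 0.53, 0.67 and 0.72 in NUP98-JARID1A lines, 0.07 in MLL-AF9, and 0.40, 0.38, 0.36 and 0.32 in untreated RH-RAS lines 1 to 4. Only differences between arrays can be read from these numbers, since levels of different probe sets are not on a common scale. Relative to the rest, the immune genes were higher in all treated and NUP98-JARID1A arrays, and lower in MLL-AF9, than in any untreated RH-RAS array. The shift was 0.14 in treated cells, 0.28 in NUP98-JARID1A lines and −0.30 in MLL-AF9. In NUP98-JARID1A lines most of the rise in the immune mean came from Psmb9, and in treated cells most came from Psmb10.

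The exchange partners showed no common direction. Psmb9 minus Psmb6 averaged 0.57 ± 0.18 in NUP98-JARID1A lines and −0.34 ± 0.12 in RH-RAS lines (SD, n = 3 and 4), and was −0.91 in MLL-AF9. Psmb10 minus Psmb7 went the other way, averaging −1.21 ± 0.08 in NUP98-JARID1A lines and −0.54 ± 0.21 in RH-RAS lines, with Psmb7 higher by more than Psmb10, and was −1.20 in MLL-AF9. Psmb8 minus Psmb5 was 0.14 ± 0.05 in NUP98-JARID1A lines and 0.20 ± 0.05 in RH-RAS lines, and −0.26 in MLL-AF9. In treated cells these 3 differences were shifted from the untreated state of the same lines by −0.08, 0.28 and 0.01.

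**Figure D4:**
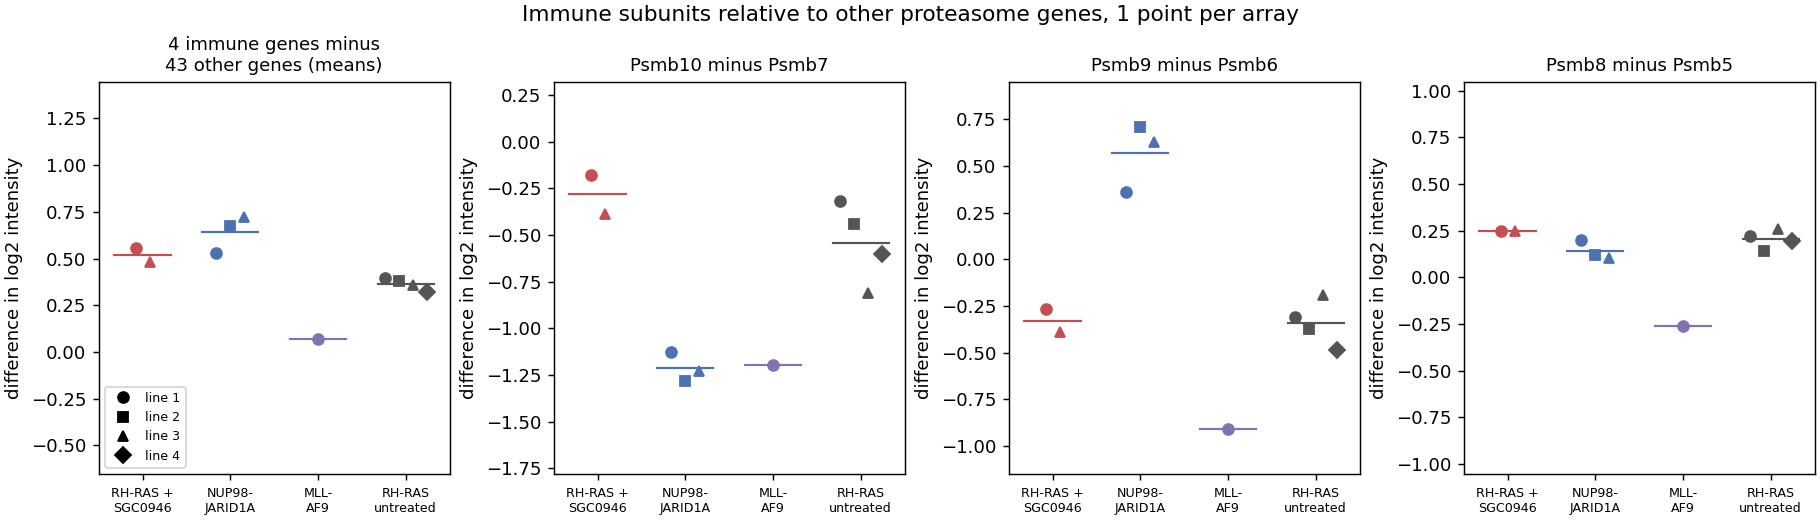
Mean log2 level of the 4 immune genes minus that of the other 43 proteasome genes on each array (left), and the difference between each immune catalytic subunit and the constitutive subunit it replaces (right 3 panels), with 1 point per array and a bar at the group mean. Psmb9 minus Psmb6 is higher on the 3 NUP98-JARID1A arrays than on any other, while Psmb10 minus Psmb7 is lower there and in MLL-AF9 than in every RH-RAS array.

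Psmb9 and Psmb8 lie in the MHC region of chromosome 17 among the peptide transporter genes, in the order Psmb9, Tap1, Psmb8, Tap2. The 4 neighbours did not move together. In NUP98-JARID1A lines Tap1 was at 9.91, 10.26 and 9.96, against 9.43, 9.36, 9.30 and 9.07 in RH-RAS lines, higher by 0.76 ± 0.12 (adjusted p = 0.00194), as Psmb9 was. Tap2 was at 10.81, 10.81 and 10.73, against 10.83, 10.67, 10.66 and 10.55, and with Psmb8 it did not pass (0.10 ± 0.09, adjusted p = 0.360). Psmb9 and Tap1 are read in opposite directions from a shared stretch, and 275 bases of their 300-base windows coincide. Under SGC0946, Tap2 fell by 0.82 ± 0.10 (adjusted p = 0.00569), at 9.98 and 9.87 in treated lines 1 and 3 against 10.83 and 10.66 untreated, while Psmb9, Tap1 and Psmb8 did not pass. In MLL-AF9, Psmb9, Tap1, Psmb8 and Tap2 were all below every RH-RAS line. On this single array 75.7% of all genes lay outside the RH-RAS range.

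**Figure D5:**
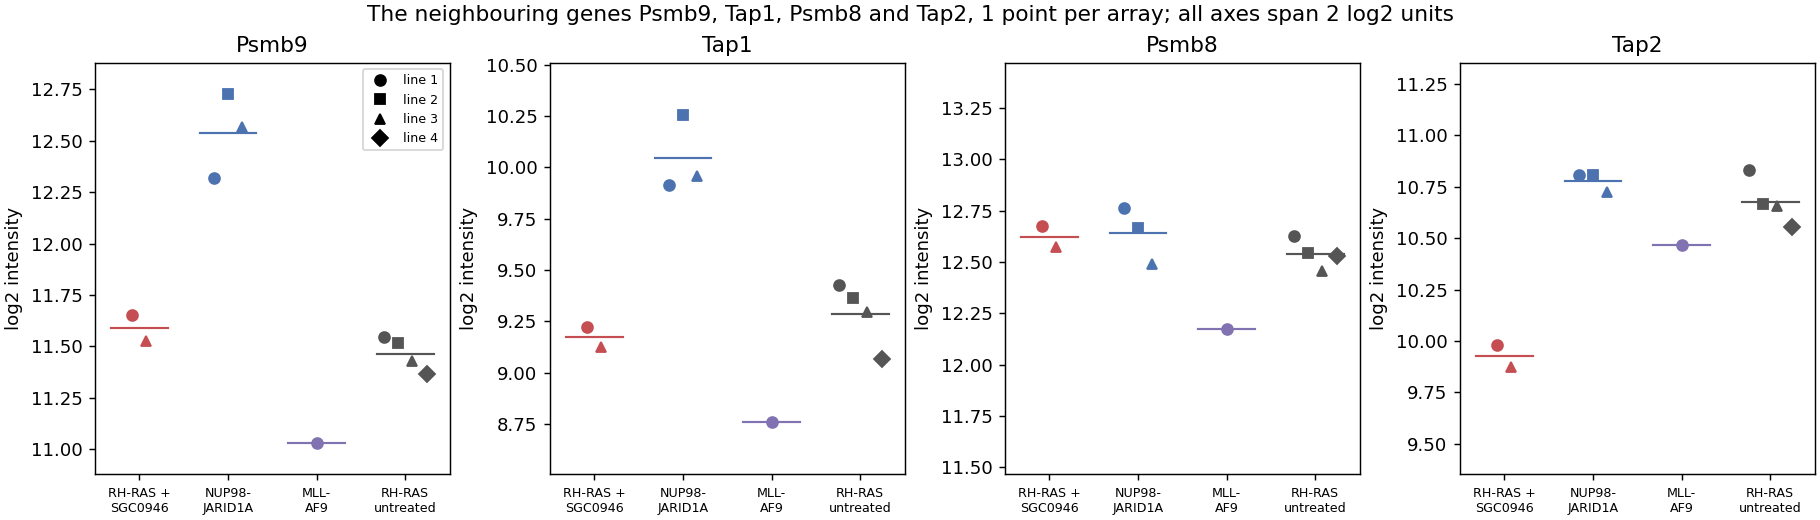
Log2 intensity of the neighbouring genes Psmb9, Tap1, Psmb8 and Tap2, with 1 point per array and a bar at the group mean, on axes that all span 2 log2 units. Psmb9 and Tap1 are higher in NUP98-JARID1A lines, Tap2 is lower in treated RH-RAS cells, and all 4 are lower in MLL-AF9 than in untreated RH-RAS lines. On the single MLL-AF9 array 75.7% of all genes lay outside the RH-RAS range.

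The wider MHC class I pathway, which receives the peptides, was described by a list of 15 genes, 13 of them measured alone. In NUP98-JARID1A lines 9 were higher, 1 lower (the chaperone Canx) and 3 did not pass, with a median of 0.72, where 51.0% of all genes were called (32.5% higher) and the median was 0.10. Nlrc5, the transactivator of class I genes, was higher by 2.05 ± 0.29, the class I heavy chains H2-D1 and H2-K1 by 1.27 ± 0.20 and 1.16 ± 0.18, and the peptide-loading factor Tapbp by 0.72 ± 0.09, while the light chain B2m did not pass (0.11 ± 0.10). Under SGC0946, Tapbp rose by 0.61 ± 0.12, Tap2 and Nlrc5 fell by 0.82 and 1.48, and 10 did not pass, with a median of −0.02, where 12% of all genes were called and the median was 0.02. Nlrc5 was at 5.05 and 5.18 in treated cells, against 6.68 and 6.50 untreated, near the bottom of the range, where fold changes are understated.

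Interferon signalling, which induces immune subunits, was covered by 14 measured genes of 16. In NUP98-JARID1A lines 4 were higher, the receptors Ifnar1 (0.97), Ifngr2 (0.55) and Ifngr1 (0.46) and the transcription factor Irf1 (0.42), 1 was lower, the repressor Irf2 (−0.90), and 9 did not pass. Under SGC0946, Irf8 rose by 1.80 ± 0.33 and Ifngr2 by 1.24 ± 0.15, and 12 did not pass, Irf1 among them at −0.03 ± 0.14. Of these interferon genes, 14.3% were called under SGC0946 and 35.7% in NUP98-JARID1A lines, against 12% and 51.0% of all genes. Of 18 measured proteasome partners and regulators out of 25, Nfe2l2, a transcription factor of oxidative stress, rose under SGC0946 by 0.65 ± 0.13, and 17 did not pass. In NUP98-JARID1A lines 4 of the 18 were higher, among them Nfe2l1, the transcription factor that raises proteasome genes when the protease is blocked (0.46 ± 0.09), and the small cap subunit Sem1 (0.47 ± 0.08), 3 were lower, among them Akirin2, which takes proteasomes into the nucleus (−0.34 ± 0.10), and 11 did not pass. Of the partners and regulators, 5.56% were called under SGC0946 and 38.9% in NUP98-JARID1A lines, against 12% and 51.0% of all genes. Pomp, which matures the core, was at 0.25 ± 0.12 under SGC0946 and 0.03 ± 0.09 in NUP98-JARID1A lines and passed in neither.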

How the data were processed

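The authors deposited a log2 intensity for each probe set, computed with RMA per the submitters' processing notes. The RMA version is not given in the sources used here. RMA gives no detection calls and understates changes near the bottom of the range, where array medians were 5.72 to 5.82. They were used as deposited, and 0 deposited columns were left unused. The number of arrays limits the precision.

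Probe sets were named from the array's annotation (34958 with 1 symbol, 932 with several, 9211 not listed), and symbols with several genes were left out. Genes that exceeded the median of the array in 2 or more of the 10 samples were tested. limma 3.58.1 in R 4.3.3 (lmFit, eBayes) was fitted to all 11993 genes tested, with Benjamini-Hochberg adjustment over them and a threshold of 0.05. SGC0946 was read from 10 arrays as treated minus untreated lines 1 and 3, and NUP98-JARID1A from the 8 arrays without inhibitor. The fits were tested on simulated data with changes larger than those of most proteasome genes, so smaller changes were not covered. Alternatives were other probe set choices, no filter, median subtraction, other eBayes settings, other controls, replicate blocks and leaving out each replicate. The treated and untreated lines 1 and 3 are the same cell lines, so the line pairs them (deviations correlated at 0.29), while NUP98-JARID1A numbers pair nothing (−0.05 to 0.07). Values per array are given for the immune and constitutive catalytic subunits and for members called in a comparison, up to 12 by size of change, and otherwise for the extremes of each role; genes outside that rule were named after their values were seen. Members and lists were chosen with earlier results of these data known. Some genes of the pathway and marker lists were not analysed here.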

Additional observations from a re-analysis of the deposited data

Results flagged for a closer look

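Among the 4 untreated RH-RAS lines, line 3 lay far from the other 3 for 3 proteasome genes by Dixon's criterion. Psmb6 was at 11.62 in line 3, against 11.85 to 11.89 in the others, Psmb10 at 10.74, against 10.98 to 11.02, and Psmg4 at 9.70, against 9.85 to 9.88. These are 3 of 49 genes examined (6.12%), where the criterion's nominal rate is about 1 in 20 for an outlier in any of the 4 lines. The share over all genes is not given here, and the genes are not independent of each other. Line 3 is a control of the inhibitor comparison, and without it the change of Psmb10 was 0.40, against 0.52 with it.

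The probe set that matches both Psme2 and Psme2b, which no count used, was 0.40 higher in treated than in untreated lines 1 and 3, at 12.22 and 12.17 against 11.83 and 11.77. It was not tested, and which of the 2 genes the signal comes from was not tested either.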

How the results depend on the processing

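For SGC0946 the count of members called higher was 1 in the settings not named here. It was 2 with trend and robust eBayes and with all 4 untreated lines as the control, each adding Psma1 (0.32 and 0.30, adjusted p = 0.0375 and 0.0395), and 0 to 1 over the fits without a replicate, where an arm left with a lone array is assumed to vary like the other groups. The count lower was 1 in place of 0 in the 6 RH-RAS arrays alone (Psme4). With the line as a block it was 1 higher and 0 lower, and the count over all genes was 866 in place of 1434. The fits that left 1 array in an arm called 28 to 149 genes in all, and that on the 6 RH-RAS arrays 2745. For NUP98-JARID1A the count higher was 14 to 22 and the count lower 5 to 7 over 14 alternatives. The line numbers do not pair these samples, and with them as a replicate block the counts were 15 and 5. With the mean of all probe sets, Psmb4 turned to −0.067 (adjusted p = 0.579), Psmd7 to 0.19 (adjusted p = 0.0358) and Psmd9 to −0.13 (adjusted p = 0.228), and Psmb8 passed at −0.55 (adjusted p = 0.0221). Without probe sets ending in _x_at or _s_at, Psmc2 turned to 0.082 (adjusted p = 0.385) and Psmd11 went down to 0.052 (adjusted p = 0.586). For Psmb4, Psmd7, Psmd9, Psmb8 and Psmc2 the second probe set above the array median had the opposite sign to the one used. For MLL-AF9 the count higher was 1 with no filter (Psma8) and 2 at a difference of at least 0.5, where the count lower was also 2. Subtracting the array median moved the median of all genes by 0.04 to 0.06 and changed no count of members.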
